A study of Homo sapiens with 5 samples.

Results

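The zinc finger gene clusters of human chromosome 19 were examined in MOLT-4 cells, an established T cell acute lymphoblastic leukaemia line, in 3 CUT&RUN peak lists made with antibodies to H3K4me3, RUNX1 and a target labelled SMA4. In CUT&RUN an antibody brings micrococcal nuclease to its target on chromatin and the DNA fragments cut free are sequenced; a peak is a stretch in which such fragments pile up. The clusters were taken as 5 windows in hg19: cluster A at 20 to 24.5 Mb, cluster B at 36.7 to 38.4 Mb, cluster C at 44.3 to 45.0 Mb, cluster D at 52.4 to 53.9 Mb and cluster E at 56.8 to 59.0 Mb. The windows were set by position, but they were chosen with earlier results of these data known. A peak belonged to a window when its midpoint lay there. Together they spanned 10.6 Mb and held 174 H3K4me3 peaks of the 13199 in that list, 180 of the 36777 from RUNX1 and 3 of the 1479 from SMA4. They were set against the rest of chromosome 19, 48.5 Mb with 795 H3K4me3, 1406 RUNX1 and 13 SMA4 peaks. All cells came from this 1 line in RPMI-1640 medium with serum, and no treatment other than the assay itself is named in the labels. Each antibody had 1 library, so there is no replicate check and no test, and the series' pair of IgG controls was not analysed here. The lists give positions only, and how many reads a peak rests on is unknown. Intervals in parentheses are 95% intervals and cover counting error only, with peaks taken as independent, which neighbouring peaks are not.

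Most genes of these clusters encode KRAB zinc finger proteins, a family that grew by tandem duplication. Such a protein binds DNA through an array of C2H2 zinc fingers, and its KRAB domain recruits TRIM28, a scaffold that brings in the histone methyltransferase SETDB1 and so leads to silencing, often of transposable elements. In many cell types the bodies of these genes themselves lie in chromatin with the repressive mark H3K9me3, whereas their promoters stay active. H3K4me3 marks active and poised promoters. RUNX1, a transcription factor with a runt domain that blood cell development needs, binds DNA together with CBFB, at promoters and at distal enhancers. No annotation of hg19 was used here, and peaks are therefore given by position without a gene name. The SMA4 label does not spell out its target.

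The sequence of the promoters could be described only by gene symbol, over the whole chromosome and not by window. The RefSeq promoter table (GRCh38.p14) held 219 protein-coding genes of chromosome 19 whose symbol is ZNF and a number, of 437 such genes on chromosomes 1 to 22 and X. In the 250 bases before the transcript start, these ZNF promoters had a median of 16 CpG dinucleotides (quartiles 11 and 20), against 17 (quartiles 7 and 25) for the other 966 genes of chromosome 19. The core motif bound by RUNX factors, TGTGGT, searched on both strands, was present in 20 of the 219 ZNF promoters (9.13%, 5.67 to 13.8%), in 90 of the 966 others (9.32%) and in 8.90% of all 15812 promoters. Within these 250 bases, this exact sequence was thus about as frequent in the ZNF promoters as in the others. Variants of it and sequence beyond these bases were not searched. Because the genes are duplicates and the peak names carry a tag for unique reads, exact copies between promoters were also counted. Of the 219 ZNF promoters, 5 shared a run of 50 or more bases with the promoter of another gene elsewhere (2.28%, 0.745 to 5.25%), against 34 of the other 966 (3.52%, 2.45 to 4.88%). Promoters were compared only with each other. Copies elsewhere in the genome and sequence outside promoters are not covered, so the count cannot show how unique reads affect the clusters. The pair of chromosome 19 ZNF genes with the longest shared run, 56 bases, is printed to show how much such neighbouring copies have in common, with the shared run in capitals and each sequence in the direction of transcription, from the RefSeq table in GRCh38.p14.
ZNF587B, plus strand, chr19:57830049-57830298: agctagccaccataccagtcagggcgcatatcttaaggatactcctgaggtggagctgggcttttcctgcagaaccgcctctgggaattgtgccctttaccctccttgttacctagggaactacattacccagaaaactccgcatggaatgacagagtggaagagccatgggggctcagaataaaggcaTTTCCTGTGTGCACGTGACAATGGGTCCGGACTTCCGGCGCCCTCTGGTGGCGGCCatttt
ZNF814, minus strand, chr19:57889038-57889287: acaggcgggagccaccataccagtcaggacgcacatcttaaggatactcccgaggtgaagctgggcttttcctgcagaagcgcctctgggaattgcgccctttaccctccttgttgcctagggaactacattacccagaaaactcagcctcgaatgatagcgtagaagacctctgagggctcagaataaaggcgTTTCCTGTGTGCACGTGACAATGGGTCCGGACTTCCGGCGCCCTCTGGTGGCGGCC
Outside the shared run these copies are alike over long stretches and differ at scattered bases. Neither copy holds the motif on either strand, and where they lie relative to the peaks was not examined. Duplicated promoters without an exact shared run of 50 bases are not in the count of copies.

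H3K4me3 peaks had the same density in the clusters and on the rest of the chromosome within counting error, and RUNX1 peaks were sparser in the clusters. There were 16.4 H3K4me3 peaks per Mb in the clusters (14.1 to 19) and 16.4 per Mb in the rest (15.3 to 17.6), a ratio of 1.0 (0.845 to 1.18). RUNX1 peaks numbered 17.0 per Mb in the clusters (14.6 to 19.7) and 29.0 per Mb in the rest (27.5 to 30.6), a ratio of 0.586 (0.499 to 0.684). The clusters thus held 1.03 RUNX1 peaks for each H3K4me3 peak, whereas the rest held 1.77, and the other 22 chromosomes held between 2.15 (chromosome X) and 3.6 (chromosome 13). The direction of the RUNX1 difference depended on what the clusters were set against, since their density was 1.44 times that of all other chromosomes (1.23 to 1.66). Within 1 Mb on either side of the windows, the ratio was 0.651 (0.533 to 0.794).

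The 5 clusters differed from each other in density. Cluster A, the longest and the one next to the centromere, was the poorest, with 7.78 H3K4me3 and 8.0 RUNX1 peaks per Mb. Cluster B had 17.6 and 19.4 per Mb, and cluster C had 17.1 and 18.6 per Mb. Cluster D reached 26.0 H3K4me3 and 24.7 RUNX1 peaks per Mb, and cluster E reached 26.4 and 27.7 per Mb. The H3K4me3 intervals of cluster A (5.42 to 10.8) and of clusters D (18.5 to 35.5) and E (20 to 34.1) did not overlap. In every cluster the H3K4me3 and RUNX1 numbers were nearly equal, from 0.949 RUNX1 peaks per H3K4me3 peak in cluster D to 1.10 in cluster B. Each list's number depends on a threshold and a depth that are not known. Equal numbers therefore do not by themselves show a match of peaks, and the ratio serves only to compare places. Without cluster A, the density ratio of the remaining clusters to the rest was 1.39 for H3K4me3 and 0.814 for RUNX1.

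**Figure D1:**
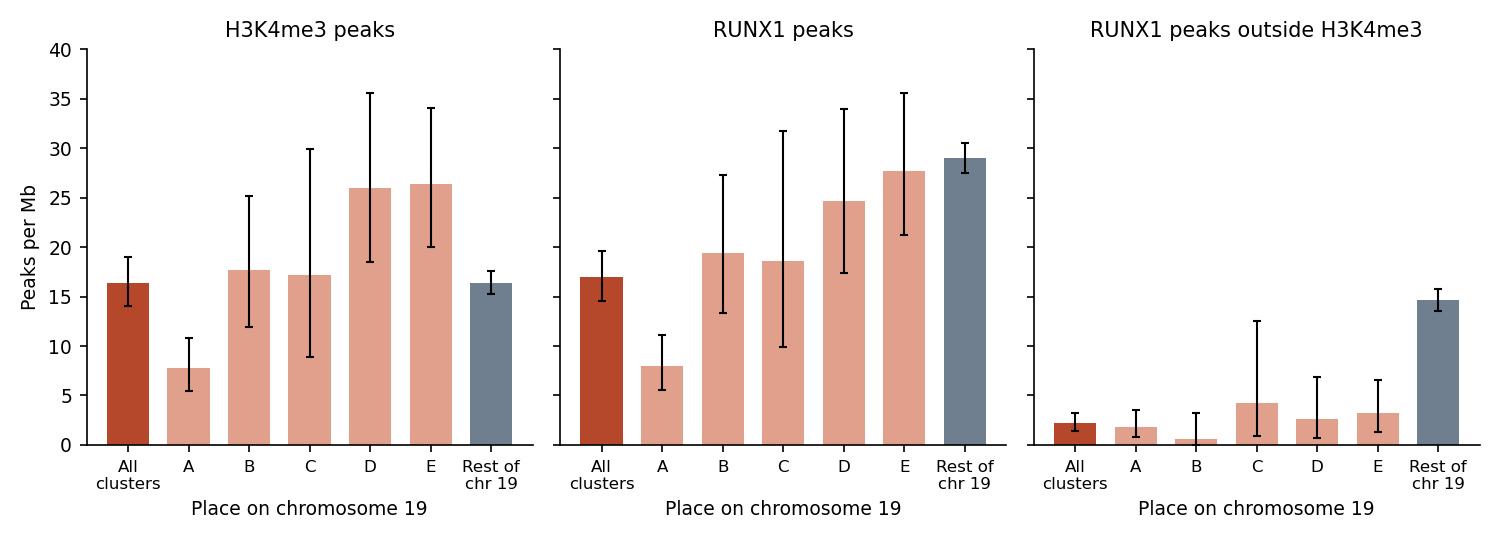
Peaks per Mb (vertical axis) of H3K4me3, of RUNX1 and of RUNX1 peaks that do not overlap H3K4me3, in all clusters, in clusters A to E and in the rest of chromosome 19. Bars are counts per length from 1 library each and lines are 95% exact Poisson intervals; RUNX1 peaks outside the mark stand at 2.17 per Mb in the clusters and 14.6 per Mb in the rest.

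Within the clusters the peaks were unevenly spread. The longest stretch of cluster A without H3K4me3, chr19:22235502-23258017 in hg19 (1022516 bp), also held no RUNX1 and no SMA4 peak. In cluster E the longest such stretch was chr19:57107435-57702619 (595185 bp), with a single RUNX1 peak of 513 bp. The longest stretches of clusters B, C and D were shorter, at 160610, 190809 and 139126 bp. That of cluster C ran to the end of the window. The longest stretch of the chromosome without a peak of any list, chr19:24270552-27732002 (3461451 bp), began inside cluster A and took in the centromere. With its part outside the windows taken off the length of the rest, the density ratio was 0.934 for H3K4me3 and 0.547 for RUNX1. The length of the clusters was left as it was. Neighbouring H3K4me3 peaks in the clusters lay a median of 36.0 kb apart (29.6 to 41.6 kb), against 24.6 kb in the rest (22 to 28 kb). The spacing was widest in cluster A, at 70.3 kb, and 24.1 kb in cluster E. Marks in close company were less frequent in the clusters: 11 of 169 neighbouring pairs lay under 2 kb apart (6.51%, 3.29 to 11.3%), against 131 of 789 in the rest (16.6%, 14.1 to 19.4%).

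H3K4me3 peaks in the clusters were of more even width than in the rest. Their median width was 1006.5 bp (922 to 1098 bp), against 846 bp in the rest (759 to 892 bp), a ratio of 1.19. The quartiles were 689 and 1268 bp in the clusters and 395.5 and 1332 bp in the rest, so the clusters had fewer peaks at the narrow end and no surplus at the wide end. Peaks under 400 bp made up 21 of 174 in the clusters (12.1%, 7.63 to 17.9%) and 25.3% in the rest (difference -13.2 percentage points, -18.3 to -6.84). Peaks over 2000 bp made up 6 of 174 in the clusters (3.45%) and 7.30% in the rest, a difference whose interval reached past 0 (-6.59 to 0.344 percentage points). The widest H3K4me3 peak of the clusters measured 2582 bp, and the widest of the rest 3768 bp. The higher median depended on how peaks were counted. With peaks of a list within 1 kb of each other merged, the ratio of medians was 1.01, and against all other chromosomes it was 1.06.

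**Figure D2:**
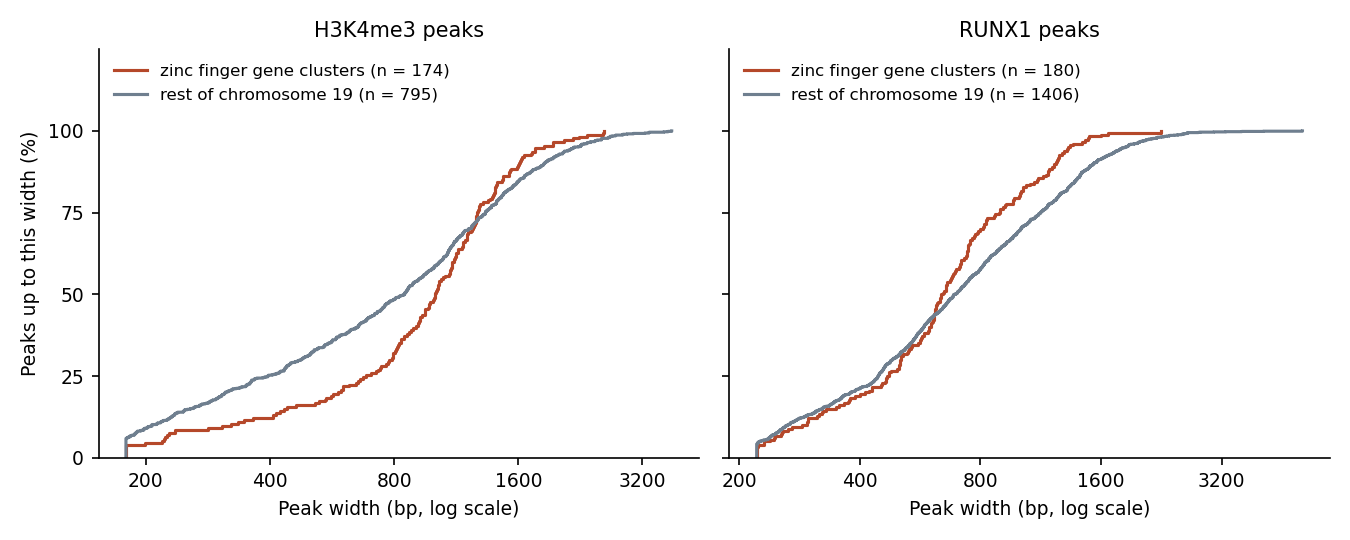
Cumulative share of H3K4me3 peaks and of RUNX1 peaks (vertical axis, %) by peak width (horizontal axis, bp, log scale) in the zinc finger gene clusters and in the rest of chromosome 19. The H3K4me3 curve of the clusters is steeper, with 12.1% of peaks under 400 bp against 25.3% in the rest.

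Median H3K4me3 width was 1012 bp in cluster A, 1276.5 bp in cluster B, 728 bp in cluster C, 912 bp in cluster D and 955.5 bp in cluster E. Cluster B stood highest, with an interval of 1140 to 1631 bp that did not overlap those of clusters D (738 to 1087 bp) and E (871 to 1103 bp). The interval of cluster C, from 12 peaks, was 321 to 1404 bp and overlapped all others. The widest peak of all lay in cluster B at chr19:37340188-37342769 (2582 bp), over a RUNX1 peak of 1318 bp. The second of that cluster, at chr19:38144877-38147443 (2567 bp), held a pair of RUNX1 peaks of 659 and 1489 bp. In cluster A the widest H3K4me3 peak was chr19:21202994-21204532 (1539 bp) with a RUNX1 peak of 800 bp. In cluster C it was chr19:44598174-44599644 (1471 bp), with RUNX1 peaks of 745 and 617 bp. In cluster D it was chr19:52692516-52694457 (1942 bp), which shared most of its length with a RUNX1 peak of 1604 bp. In cluster E it was chr19:58897283-58899527 (2245 bp), with a RUNX1 peak of 1666 bp. The 2 widest H3K4me3 peaks of each cluster, 10 in all, overlapped RUNX1. So did 87.4% of all H3K4me3 peaks in the clusters. Every H3K4me3 peak over 1524 bp overlapped RUNX1, 22 in the clusters and 142 in the rest.

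A larger share of RUNX1 peaks lay at the mark in the clusters than elsewhere on the chromosome. Of 180 RUNX1 peaks in the clusters, 157 overlapped H3K4me3 (87.2%, 81.4 to 91.7%), against 697 of 1406 in the rest (49.6%, 46.9 to 52.2%), a difference of 37.6 percentage points (31.4 to 42.5). Over chromosomes 1 to 22 and X the share was 32.2%, and on single chromosomes other than 19 it ranged from 24.6% (chromosome 21) to 39.4% (chromosome X). By cluster the share was 77.8% in A, 97.0% in B, 76.9% in C, 89.2% in D and 88.5% in E. The lower bounds of clusters A, B, D and E, at 60.8% or more, lay above the interval of the rest, whereas that of cluster C, from 13 peaks, reached down to 46.2%. The difference was 34.1 percentage points against the 1 Mb flanks and ran between 35.5 and 40 points with each cluster left out in turn.

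RUNX1 peaks outside the mark were fewer in every cluster, whereas the density of those at the mark differed between clusters. RUNX1 peaks at H3K4me3 numbered 14.8 per Mb in the clusters and 14.4 per Mb in the rest, a ratio of 1.03 (0.861 to 1.23). This value averages unlike clusters: there were 6.22 per Mb in A, 18.8 in B, 14.3 in C, 22 in D and 24.5 in E. Without cluster A the ratio was 1.47 (1.21 to 1.78). RUNX1 peaks outside H3K4me3 numbered 23 in the clusters, or 2.17 per Mb (1.38 to 3.26), and 709 in the rest, or 14.6 per Mb (13.6 to 15.7), a ratio of 0.148 (0.0934 to 0.224). The outside peaks ranged from 0.588 per Mb in cluster B, with 1 peak, to 4.29 per Mb in cluster C, with 3. In bins of 500 kb that lay wholly inside a cluster, 9 of the 17 with any RUNX1 peak had none outside the mark, against 3 of 83 in the rest. Peaks in bins that cross a window edge are not counted here. A bin with few peaks more readily has none outside the mark. Bins held a median of 7 RUNX1 peaks in the clusters and 15 in the rest, empty bins included. The 3 such bins of the rest held 1 RUNX1 peak each. Among bins with 5 or more RUNX1 peaks, at least 80% of the peaks lay at the mark in 9 of 11 in the clusters and in 2 of 73 in the rest. The threshold of 80% was chosen after the shares had been seen. The 2 bins of the rest began at 11500 kb, with 14 of 16 RUNX1 peaks at the mark, and at 16500 kb, with 9 of 11. The rest of the chromosome is not free of zinc finger genes, since the 5 windows do not take in all of them, and which bins of the rest hold such genes was not examined.

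**Figure D3:**
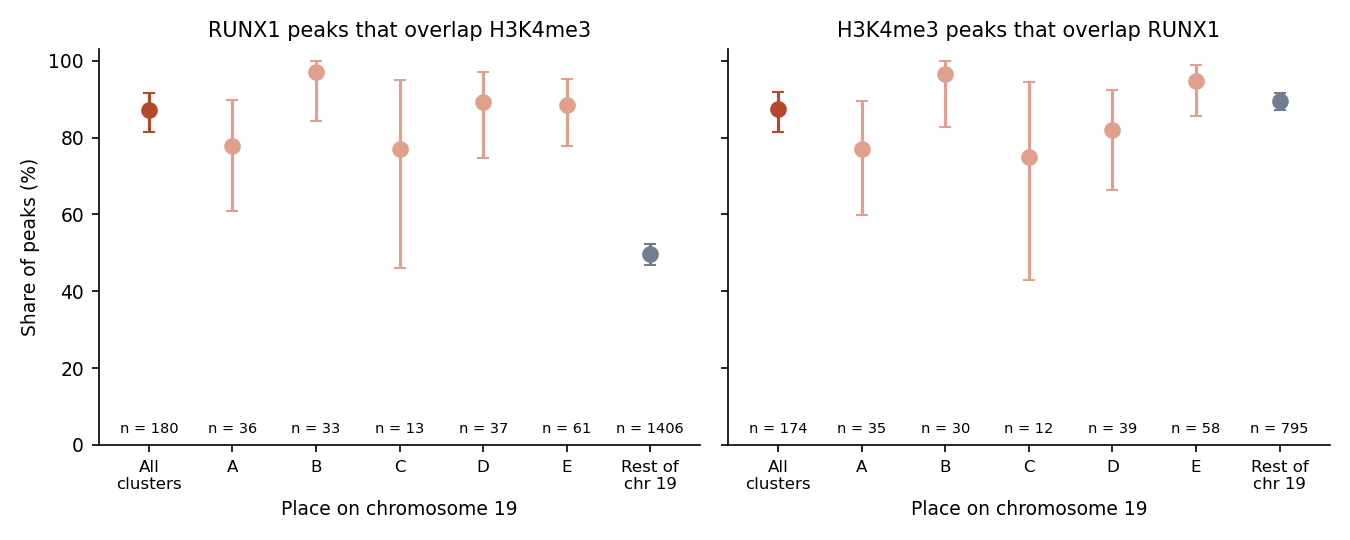
Share of RUNX1 peaks that overlap H3K4me3 (left) and of H3K4me3 peaks that overlap RUNX1 (right), in %, for all clusters, clusters A to E and the rest of chromosome 19. Points are shares of the n peaks printed and lines are 95% exact binomial intervals; the left panel has 87.2% in the clusters against 49.6% in the rest, the right panel 87.4% against 89.4%.

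The 23 RUNX1 peaks outside the mark had a median width of 400 bp (286 to 513 bp), against 493 bp in the rest (464 to 519 bp), and these intervals overlap. They lay a median of 13352 bp from the nearest H3K4me3 peak (4175 to 30420 bp), against 14807 bp in the rest (13313 to 17239 bp). All 23 were within 50 kb of the mark (85.2 to 100%), against 83.8% of the 709 in the rest (80.9 to 86.4%). These intervals overlap. Within 10 kb of the mark were 39.1% in the clusters and 40.1% in the rest, and within 5 kb 30.4% and 24.5%. Within 1 kb of it were 4 of 23 in the clusters (17.4%, 4.95 to 38.8%) and 50 of 709 in the rest (7.05%, 5.28 to 9.19%), and these intervals overlap. A run of such peaks lay in cluster A, at chr19:21785518-21786023, chr19:21786693-21787306, chr19:21787445-21787665 and chr19:21794606-21795172, between 33036 and 42124 bp from the nearest H3K4me3 peak. In cluster B the only RUNX1 peak outside the mark was chr19:38393213-38393612 (400 bp), 3728 bp from it.

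RUNX1 peaks lay in groups less often in the clusters than in the rest, by a measure that depends on density. When peaks up to 12500 bp apart were joined, the 180 peaks formed 141 groups, of which 109 were single peaks and the largest held 4. Groups of 2 or more held 39.4% of the RUNX1 peaks in the clusters (32.3 to 47.0%), against 68.9% in the rest (66.4 to 71.3%). In the rest, 57 groups had 5 or more peaks and held 25.3% of them, and the clusters had 0 such groups. Denser peaks are joined more often whatever their arrangement, and RUNX1 density was 17.0 per Mb in the clusters against 29.0 per Mb in the rest. Ranked by bases in RUNX1 peaks, 3 of the top 5 groups lay in cluster E. That cluster held 61 of the 180 RUNX1 peaks and 45.1 of the 127 kb in RUNX1 peaks. The first, chr19:58977904-58994272, held 3 RUNX1 peaks with 4225 bp in peaks and 2 H3K4me3 peaks. The second, chr19:58891882-58899424, held 2920 bp in 2 RUNX1 peaks, both at the mark.

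Seen from the mark, RUNX1 was present at most H3K4me3 peaks in the clusters and in the rest. Of 174 H3K4me3 peaks in the clusters, 152 overlapped RUNX1 (87.4%, 81.5 to 91.9%), against 711 of 795 in the rest (89.4%, 87.1 to 91.5%), a difference of -2.08 percentage points (-8.16 to 2.68). With peaks within 1 kb of each other merged, the difference was -4.56 points, with an interval that ended below 0 (-10.4 to -0.222). The share over chromosomes 1 to 22 and X was 88.1%. By cluster it was 77.1% in A, 96.7% in B, 75% in C, 82.1% in D and 94.8% in E. Most marks with RUNX1 had a single RUNX1 peak: 145 had 1 and 7 had 2 or more. H3K4me3 peaks with RUNX1 had a median width of 1075.5 bp, and the 22 without it had 313.5 bp. In the rest these medians were 920 and 235.5 bp.

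The narrow H3K4me3 peaks of the clusters met RUNX1 less often than those of the rest. In the narrowest of 4 width classes, up to 355 bp, set at the quartiles of all H3K4me3 peaks, 6 of 20 peaks in the clusters overlapped RUNX1 (30.0%, 11.9 to 54.3%), against 114 of 179 in the rest (63.7%, 56.2 to 70.7%). In the class from 355 to 938 bp the shares were 91.1% in the clusters and 94.3% in the rest, and from 938 to 1524 bp 96.1% and 98.1%. All 22 peaks over 1524 bp in the clusters and all 142 in the rest overlapped RUNX1. RUNX1 peaks were then split by their own width. Up to 380 bp, 22 of 33 RUNX1 peaks in the clusters lay at the mark (66.7%, 48.2 to 82.0%), against 42 of 282 in the rest (14.9%, 11.0 to 19.6%). From 380 to 645 bp the shares were 82.8% in the clusters and 29.7% in the rest, from 645 to 1024 bp 96.6% and 60.0%, and above 1024 bp 100% of 31 peaks and 82.2% of 410. The share was higher in the clusters in each of the 4 classes. Among RUNX1 peaks at the list's minimum width of 221 bp, 4 of 6 in the clusters and 6 of 59 in the rest lay at the mark.

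**Figure D4:**
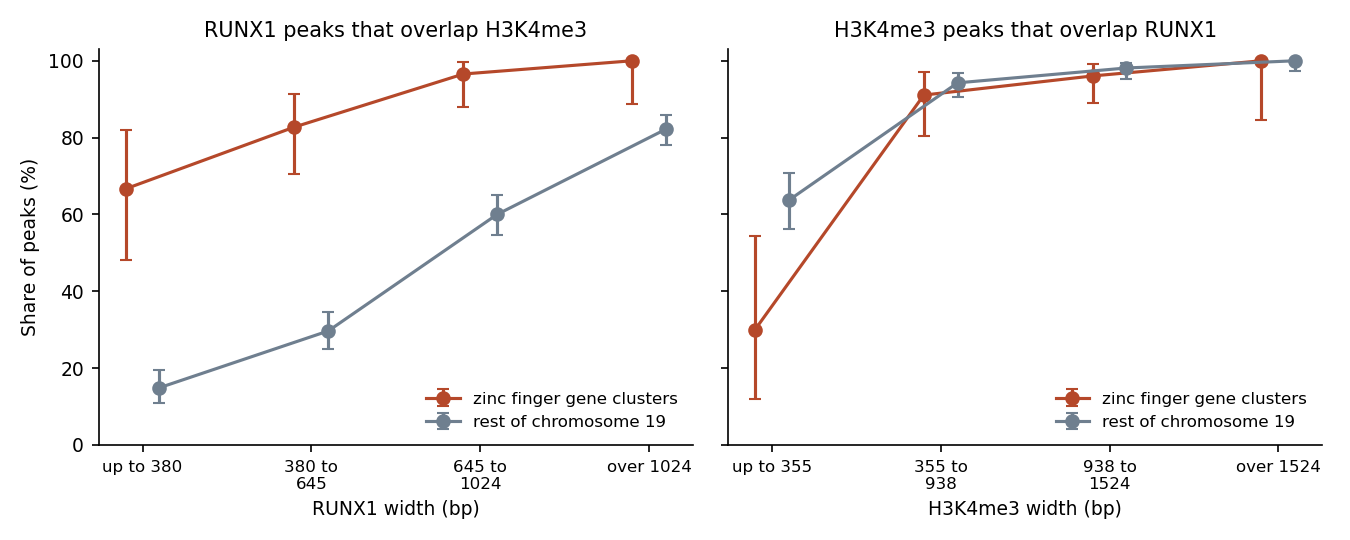
Share of RUNX1 peaks that overlap H3K4me3, by RUNX1 width (left), and of H3K4me3 peaks that overlap RUNX1, by H3K4me3 width (right), in %, in the zinc finger gene clusters and the rest of chromosome 19, with 95% exact binomial intervals. On the left the clusters lie above the rest in every class, from 66.7% against 14.9% in the narrowest; on the right the places differ most in the narrowest class, at 30.0% against 63.7%.

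The 3 widest H3K4me3 peaks without RUNX1 were chr19:58361086-58362207 in cluster E (1122 bp), chr19:23258018-23258982 in cluster A (965 bp) and chr19:20958935-20959886 in cluster A (952 bp). The nearest RUNX1 peaks lay 29833, 40819 and 145925 bp away. The second of them closed the empty stretch of cluster A described above. Cluster A held 8 of the 22 H3K4me3 peaks without RUNX1, cluster D held 7, clusters C and E held 3 each, and cluster B held 1.

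RUNX1 peaks at the mark were narrower in the clusters, both in bp and relative to the mark they lay on. Over all RUNX1 peaks the medians were closer, at 642 bp in the clusters (613 to 697 bp) and 689 bp in the rest (660 to 729 bp). RUNX1 peaks at the mark had a median width of 680 bp in the clusters (628 to 740 bp). In the rest their median was 1001 bp (951 to 1056 bp), a ratio of 0.679. The ratio was 0.715 against the 1 Mb flanks and 0.667 against all other chromosomes. Pairs of 1 H3K4me3 and 1 RUNX1 peak that overlapped no other peak of those lists were then compared. In the 140 pairs of the clusters, the RUNX1 peak was a median of 0.688 times as wide as the mark (0.633 to 0.737), against 1.05 times in the 564 pairs of the rest (0.983 to 1.12). For marks of 355 to 938 bp the ratio was 0.80 in the clusters (0.712 to 0.977) and 1.27 in the rest (1.19 to 1.39), and for marks of 938 to 1524 bp it was 0.634 (0.556 to 0.689) and 0.874 (0.827 to 0.936). For marks over 1524 bp the intervals overlapped, at 0.602 in the clusters (0.510 to 0.777) and 0.709 in the rest (0.679 to 0.775). By cluster the median ratio was 0.640 in A, 0.633 in B, 0.724 in C, 0.713 in D and 0.716 in E. In bp the clusters were less uniform. The RUNX1 peaks of these pairs had a median width of 996 bp in the rest (950 to 1056 bp). It was 673 bp in A (602 to 800 bp), 680 bp in D (595 to 790 bp) and 704.5 bp in E (615 to 783 bp). The intervals of B, at 895 bp (691 to 1112 bp), and of C, at 489 bp (375 to 1457 bp), overlapped that of the rest.

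RUNX1 peaks of the clusters lay more often inside the mark than around it. The RUNX1 peak was wholly inside the H3K4me3 peak in 66 of 140 pairs of the clusters (47.1%, 38.7 to 55.8%) and in 92 of 564 pairs of the rest (16.3%, 13.4 to 19.6%). The reverse, an H3K4me3 peak wholly inside a RUNX1 peak, was found in 11 pairs of the clusters (7.86%, 3.99 to 13.6%) and in 35.3% of the pairs of the rest (31.3 to 39.4%). A narrow mark fits inside a RUNX1 peak more readily, and these shares were not split by mark width. Marks up to 355 bp made up 4 of the 140 pairs in the clusters and 86 of the 564 in the rest. The midpoints of both peaks were a median of 163 bp apart in the clusters (137.5 to 195.5 bp) and 151 bp in the rest (139 to 169 bp). By bases, RUNX1 peaks covered 60.3% of the 175 kb under H3K4me3 peaks in the clusters and 72.3% of the 753 kb in the rest. H3K4me3 covered 83.1% of the bases in RUNX1 peaks in the clusters and 46.5% in the rest. The widest RUNX1 peak of the clusters, chr19:58986150-58988414 in cluster E (2265 bp), was one that enclosed its mark, of 915 bp. The widest of cluster A, chr19:20011008-20012498 (1491 bp), overlapped a mark of 1264 bp. The 2 widest RUNX1 peaks of each cluster, 10 in all, overlapped H3K4me3, as did 87.2% of all RUNX1 peaks in the clusters. Above 1024 bp, all 31 RUNX1 peaks of the clusters did, against 82.2% of 410 in the rest.

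**Figure D5:**
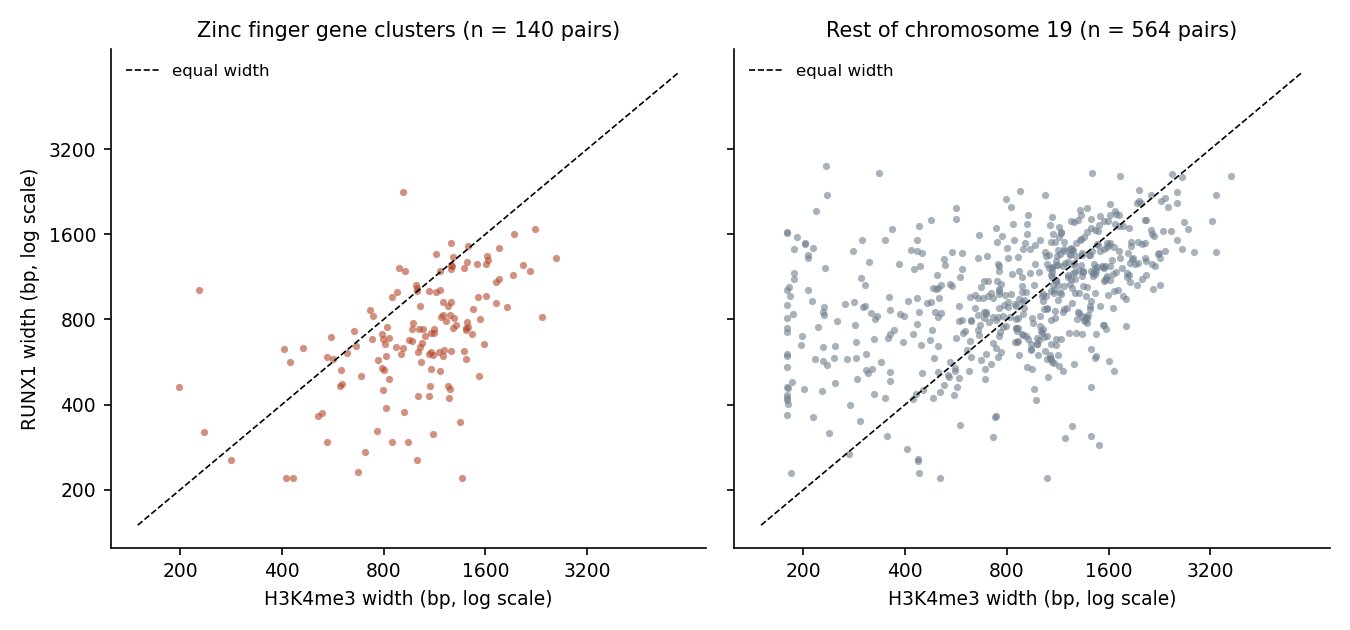
Width of the RUNX1 peak (vertical axis, bp, log scale) against that of the H3K4me3 peak it overlaps (horizontal axis, bp, log scale), for pairs of 1 peak each in the zinc finger gene clusters (140 pairs, left) and in the rest of chromosome 19 (564 pairs, right). The dashed line marks equal width; the median of RUNX1 over H3K4me3 width is 0.688 in the clusters and 1.05 in the rest.

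The clusters held 3 SMA4 peaks, or 0.283 per Mb (0.0584 to 0.827), and the rest held 13, or 0.268 per Mb (0.143 to 0.458), a ratio of 1.06 (0.193 to 3.84). All 3 overlapped RUNX1 and 2 overlapped H3K4me3, against 10 and 5 of the 13 in the rest. Over chromosomes 1 to 22 and X the shares were 65.9% and 21.8%. With 3 peaks the exact intervals of these shares were 29.2 to 100% and 9.43 to 99.2%, so no difference from the rest could be seen at this number. The peak of cluster A, chr19:21787107-21787416 (310 bp), overlapped a RUNX1 peak of 614 bp in the run outside the mark described above, 34625 bp from the nearest H3K4me3 peak. The peak of cluster B, chr19:37263804-37263965 (162 bp), lay inside both a RUNX1 peak of 1183 bp and an H3K4me3 peak of 2172 bp. The peak of cluster D, chr19:52430388-52430611 (224 bp), lay inside a RUNX1 peak of 601 bp and an H3K4me3 peak of 1119 bp. Clusters C and E held no SMA4 peak. The SMA4 list came from another batch folder and peak-calling pipeline than the other lists, and these cannot be told apart from the antibody.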

How the data were processed

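The authors deposited 1 list of peaks per library, with chromosome, start, end and a peak name and with no enrichment, probability or read number, so no values other than positions were used. Per the file headers, H3K4me3 and RUNX1 peaks are from MACS2 (batch 2 folder) and SMA4 peaks come from cutruntools at q under 0.01 (batch 3 folder). Per the submitters' processing notes the build is hg19, and SEACR is named besides MACS2. Aligner, versions, controls and the MACS2 threshold were not given in the sources used here. Peak names of the MACS2 lists bear tags for deduplicated, unique reads. How placing only unique reads changes peaks in duplicated gene clusters was not tested, and depth is unknown.

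Coordinates were written 1-based. The chromosome ran to the highest peak end in any list. Overlap meant 1 shared bp. Intervals at 95% are exact Poisson for counts, exact conditional binomial for density ratios, Clopper-Pearson for shares, Newcombe for differences of shares and binomial order statistics for medians (Python 3.11.15, numpy 2.4.6, scipy 1.17.1, statsmodels 0.14.6, figures with matplotlib 3.10.9). The code was tested on simulated peaks. Named regions were the 2 widest H3K4me3 and RUNX1 peaks and the longest stretch without H3K4me3 of each window, the 3 widest H3K4me3 peaks without RUNX1, the 5 RUNX1 groups with the most bases in peaks and every SMA4 peak. Other regions were named after their values were seen. The windows, measures and alternatives were chosen with earlier results of these data known. The promoter motif and copies, the comparison of paired widths, the bins and the 1 Mb flanks were added after the lists had been examined.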

Additional observations from a re-analysis of the deposited data

How the results depend on the processing

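No paired analysis was possible because each antibody had 1 library. Counting peaks that share any base with a window gave the values of the main setting. The difference in the share of RUNX1 peaks at H3K4me3, 37.6 percentage points, was 56.0 against all other chromosomes and 51.8, 53.1 and 17.8 in RUNX1 width classes 1, 2 and 4, counted from the narrowest. The ratio of RUNX1 density, 0.586, was 0.814 without cluster A and 0.489 without cluster E, and it reversed to 1.44 against all other chromosomes. The ratio of RUNX1 density outside the mark, 0.148, was 0.267 against all other chromosomes and between 0.130 and 0.178 in the remaining alternatives. The ratio of RUNX1 density at the mark, 1.03, was 1.47 without cluster A, 0.853 without cluster E and 4.01 against all other chromosomes. The ratio of H3K4me3 density, 1.0, was 1.39 without cluster A, 0.842 without cluster E and 4.0 against all other chromosomes. The ratio of H3K4me3 widths, 1.19, was 1.01 with peaks within 1 kb merged and 1.06 against all other chromosomes. The difference in H3K4me3 peaks with RUNX1, -2.08 points, was -33.7 in the narrowest class. It was -4.56 with peaks within 1 kb merged and -5.19 with gaps of up to 1 kb counted as overlap, and both intervals ended below 0 (at -0.222 and -1.09). The number of SMA4 peaks at H3K4me3 was 1 without cluster B or without cluster D. The ratio of RUNX1 widths at the mark ran from 0.633 to 0.715 over its 13 alternatives. The cause of these shifts was not tested. Width is the only measure of a peak's size here, and a caller that joins or splits neighbouring peaks changes it.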
